A study of Homo sapiens with 9 samples.

Results

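The transcripts of the hypoxia-inducible factor subunits and of their partners from the bHLH-PAS family were followed in RNAseq of 786-0 renal carcinoma cells. The members were 8 genes of the 58735 in the count table: the alpha subunits EPAS1 (HIF2α), HIF1A and HIF3A, the beta subunits ARNT (HIF1β) and ARNT2, and the related factors AHR, NPAS2 and SIM2. They were chosen by name, through Ensembl identifiers paired with GENCODE symbols. The comparisons address whether the supply of transcripts for the other subunits and partners differs with the drug PT2385 or in cells labelled HIF2α knockout. There were 3 groups of 3 libraries. These held 786-0 WT cells without drug, the same cells given 10 μM PT2385 for 48 h, and 786-0 cells labelled HIF2α knockout (KO). The study describes silencing of HIF2α in 786-0 cells by siRNA and no knockout line. How the KO cells were made is not given in the sources used here. All 9 cultures were kept at 21% oxygen. All of them derive from a line with defective VHL and an inactivating HIF1α mutation, so a level of HIF1A RNA says nothing of a working HIF1α protein. The sources used here do not say how many clones the KO line comprises or whether replicates were separate cultures, and p-values therefore measure only the spread between these libraries.

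Proteins of this family pair through their helix-loop-helix and PAS domains and bind DNA as dimers. An alpha subunit is hydroxylated when oxygen is present and is then marked for destruction by VHL, whereas ARNT is stable and serves as the common partner of the alpha subunits, of AHR and of the SIM proteins. In clear cell renal carcinoma the loss of VHL leaves HIF2α active at normal oxygen, and PT2385 binds the PAS-B domain of HIF2α and keeps it from ARNT. AHR is a cytoplasmic receptor activated by planar aromatic ligands. NPAS2 is a paralogue of CLOCK and pairs with BMAL1.

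The dimers recognise short DNA cores. The starts of EPAS1, HIF1A, AHR and NPAS2, which differed between groups, are shown so that these cores can be seen in place. ARNT2 differed as well but had no window to show. Each line holds the 250 bases before the first RefSeq start site (GRCh38.p14, read 5′ to 3′ on the gene's strand), and capitals mark the shared core CGTG, its reverse complement CACG, or both where they overlap.
EPAS1: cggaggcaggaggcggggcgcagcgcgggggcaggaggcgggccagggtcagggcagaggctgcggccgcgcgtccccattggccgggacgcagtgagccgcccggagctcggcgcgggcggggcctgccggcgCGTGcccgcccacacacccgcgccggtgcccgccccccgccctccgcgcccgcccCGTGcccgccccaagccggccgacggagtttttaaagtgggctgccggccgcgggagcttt
HIF1A: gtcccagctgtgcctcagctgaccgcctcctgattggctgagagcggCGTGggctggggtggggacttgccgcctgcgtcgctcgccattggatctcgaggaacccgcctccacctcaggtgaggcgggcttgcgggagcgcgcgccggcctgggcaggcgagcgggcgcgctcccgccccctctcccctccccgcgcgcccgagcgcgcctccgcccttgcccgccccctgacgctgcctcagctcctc
AHR: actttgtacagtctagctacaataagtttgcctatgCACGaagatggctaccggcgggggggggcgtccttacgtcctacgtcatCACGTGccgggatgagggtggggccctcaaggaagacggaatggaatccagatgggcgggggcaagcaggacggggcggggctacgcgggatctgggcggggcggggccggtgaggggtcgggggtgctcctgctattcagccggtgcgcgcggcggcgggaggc
NPAS2: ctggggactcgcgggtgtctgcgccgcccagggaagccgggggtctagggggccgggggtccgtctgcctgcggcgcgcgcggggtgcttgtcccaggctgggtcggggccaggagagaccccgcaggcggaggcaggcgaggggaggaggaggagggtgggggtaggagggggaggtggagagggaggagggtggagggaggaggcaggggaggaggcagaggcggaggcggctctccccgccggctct
The windows lie at chr2:46297157-46297406, chr14:61695263-61695512, chr7:17298402-17298651 and chr2:100819889-100820138, all on the plus strand. RefSeq windows were matched for 6 of the 8 members, and ARNT2 and SIM2 had no entry. Searched on both strands, CGTG occurred 2 times before EPAS1, 1 time before HIF1A, 3 times before AHR and 0 times before NPAS2. Of the 35116 windows of this length in the table, 61.1% held it. The longer form ACGTG, which contains that core and is the preferred HIF core, was found 2 times before AHR and in none of the other 3 windows shown, against 18.5% of all windows. Both AHR matches belong to a single palindrome, CACGTG, which starts 165 bases before the start site. This is the E-box bound by clock-type dimers, and 6.34% of all windows held it. GCGTG, the core of the AHR and ARNT dimer and also tolerated by HIF, occurred 1 time before EPAS1 and 1 time before HIF1A, and 32.2% of all windows held it. These matches describe letters only, and no binding was measured.

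Library totals ran from 11881000 to 14730081 counts, and no replicate was a copy of another. Values are given as CPM, the counts relative to library size after TMM scaling. Of 11 markers of renal epithelium and renal carcinoma, 10 were above the floor of 3 counts in at least 1 library, CA9 being at 0 in all 9, and their summed level was 6341 to 6790 CPM in WT, 6130 to 6787 with PT2385 and 6299 to 6660 in KO. VIM made up most of that sum, at 4733 CPM in WT, 4396 with PT2385 and 4257 in KO, and other markers moved in opposite directions. Of the 9 tested, KRT8, KRT18 and CDH6 were higher and PAX2 and CD70 lower with PT2385 than in WT (edgeR adjusted p under 0.05). KRT8, KRT18 and CDH6 were higher and PAX2 lower in KO than in WT. Of all tested genes, 7.70% and 30.1% passed that threshold in these comparisons. In 1 model of all 9 libraries PAX2 did not pass with PT2385 (adjusted p = 0.0662). With the replicate number as a block VIM was also lower with PT2385 (log2 fold change -0.11, adjusted p = 0.0164). CDH6 was at 260% of WT with PT2385 and 205% in KO, and PAX2 at 73.9% and 40.5%. The CDH6 rise in KO was uneven, at 158.5, 293.5 and 159.1 CPM. None of 4 immune or 3 endothelial markers rose above that floor. Of 3 fibroblast markers, COL1A2 was at 0 in all libraries, and the summed level was 6.91 to 8.89 CPM in WT, 8.38 to 10.5 with PT2385 and 2.01 to 3.08 in KO. The part of these marker differences in the results below was not tested.

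Transcripts were detected for 6 of the 8 members, and EPAS1 was by far the most abundant in WT cells. Divided by the length of merged exons, the WT levels were 35.1 ± 2.83 CPM per kb for EPAS1 (mean ± SD, n = 3 here and below), 8.26 ± 0.274 for ARNT, 7.20 ± 0.732 for AHR, 4.11 ± 0.855 for HIF1A, 1.58 ± 0.120 for ARNT2 and 0.524 ± 0.0945 for NPAS2. Each step of this order separated the 3 libraries of the higher gene from those of the lower one. HIF3A and SIM2 had 0 counts in every library, so that levels above 0.206 to 0.252 CPM, which 3 counts represent, were not seen at this depth. SIM2 shares 1292 exon bases with HLCS on the other strand, a gene with 4402 counts over the 9 libraries.

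With PT2385 the order changed at 1 place. HIF1A, at 5.47 ± 0.958 CPM per kb, ranked above AHR, at 4.19 ± 0.205, and every HIF1A value from 4.37 to 6.16 lay above every AHR value from 3.96 to 4.35. In KO cells EPAS1 dropped below ARNT, HIF1A and AHR, to 3.03 ± 0.358 CPM per kb. ARNT, at 8.61 ± 0.812, and HIF1A, at 7.06 ± 1.36, then stood highest, and their libraries overlapped. NPAS2, at 1.23 ± 0.235, had moved above ARNT2, at 0.779 ± 0.127, without overlap. Taking the longest annotated transcript in place of merged exons left the order in each group as it was. Neither length allows for the 2373 of 8051 AHR exon bases shared with another gene on its strand. Reads there may not have been counted for AHR, so its place in the order of each group is uncertain.

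**Figure D1:**
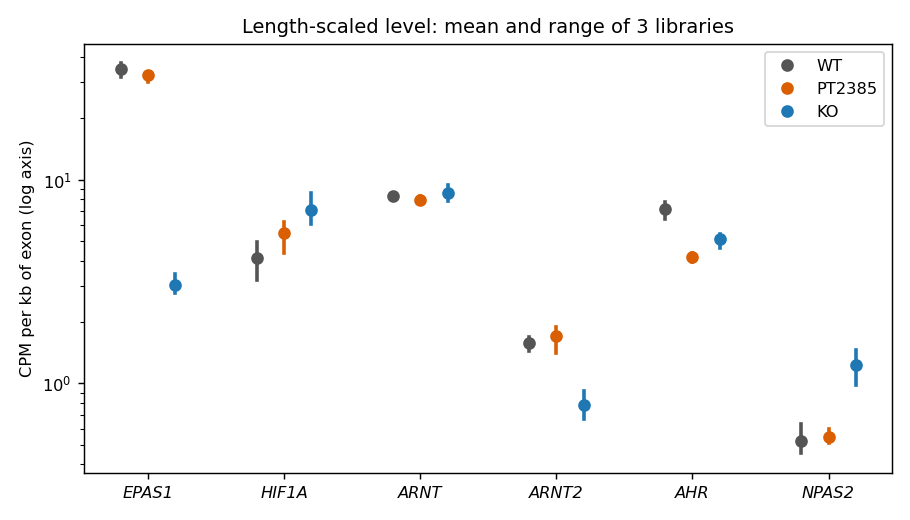
Level of the 6 detected members in CPM per kb of merged exons (log axis) for WT, PT2385 and KO libraries, with a point at the group mean and a line over the range of its 3 libraries. EPAS1 stands at 35.1 CPM per kb in WT and 3.03 in KO, below ARNT, HIF1A and AHR of the same KO cells.

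The 6 detected members passed the filter on low counts and were tested with all other genes, and a gene was called at an adjusted p under 0.05 (edgeR). AHR was the 1 member called with PT2385 against WT, and it was lower. In that comparison 7.70% of all tested genes were called, 3.08% higher and 4.62% lower. In KO against WT 5 of the 6 were called, HIF1A and NPAS2 higher and EPAS1, ARNT2 and AHR lower, where 30.1% of tested genes were called, 14.7% higher and 15.4% lower. EPAS1 is the gene that the KO label names. In KO against PT2385 3 of the 6 were called, NPAS2 higher and EPAS1 and ARNT2 lower, where 18.8% of tested genes were called, 8.47% higher and 10.3% lower. Groups did not overlap for 1 member with PT2385 against WT, 5 with KO against WT and 4 with KO against PT2385, and for 25.9%, 44.0% and 35.1% of tested genes. The PT2385 background itself moved with single libraries. It was 1162 genes with all 6 libraries, and 654, 581, 728 and 574 without WT replicate 1, 2 or 3 or PT2385 replicate 2. For KO against PT2385 the 2897 genes became 1836 without PT2385 replicate 2. Both comparisons with WT share its libraries, and in bulk RNA a change in the number of expressing cells and a change in RNA per cell cannot be told apart.

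**Figure D2:**
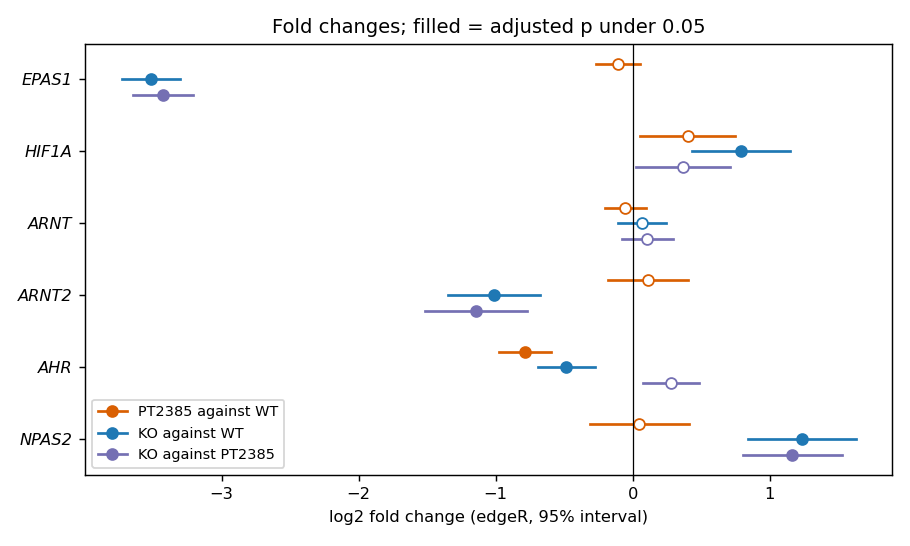
Log2 fold changes of the 6 tested members in PT2385 against WT, KO against WT and KO against PT2385, with 95% intervals from edgeR; filled symbols have an adjusted p under 0.05. AHR is the filled member for PT2385 against WT, and ARNT is open in all 3 comparisons.

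EPAS1 encodes the drug target and is the gene that the KO label names. It was not called upon PT2385 treatment and lost most of its RNA in KO cells. Its levels in WT replicates 1, 2 and 3 were 271, 264 and 232 CPM. In the PT2385 libraries they were 247, 247 and 220.4 CPM. In the KO libraries they were 20.2, 25.1 and 21.0 CPM. The WT and PT2385 values overlapped, and their difference had a 95% interval from -0.27 to 0.06 on the log2 scale. KO lay 11.5-fold below WT, and 262 to 360 EPAS1 reads per KO library were still counted, well above the floor of 3. EPAS1 spans chr2:46293667-46386697 on the plus strand in GRCh38 and no other annotated gene with a row in the count table overlaps it. EPAS1-AS1 was not matched to a row. The whole-gene counts do not show where in the gene these reads lie.

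HIF1A, the alpha subunit of the acute hypoxic response, was up-regulated in KO cells. Its levels were 25.3, 21.6 and 16.6 CPM in WT, 31.7, 30.2 and 22.5 CPM with PT2385, and 33.6, 44.3 and 31.1 CPM in KO. All KO libraries lay above all WT libraries, a 1.73-fold difference (log2 fold change 0.79, SE 0.163, edgeR adjusted p = 0.00364). WT and PT2385 overlapped, because PT2385 replicate 3 lay below WT replicate 1. That log2 fold change was 0.40 (SE 0.159, interval 0.06 to 0.75, edgeR adjusted p = 0.168). HIF1A was higher in each PT2385 library than in the WT library of the same number, by 0.32, 0.48 and 0.44 on the log2 scale. With the replicate number as a block the edgeR adjusted p was 0.00354, in a fit that called 15.3% of all genes, and without PT2385 replicate 3 it was 0.0145. Between KO and PT2385 the log2 fold change was 0.37 (interval 0.02 to 0.71, edgeR adjusted p = 0.138). Of the antisense transcripts at HIF1A, HIF1A-AS1 had 9 counts over all libraries and HIF1A-AS3 had 0. HIF1A-AS2 was not matched to a row of the count table and was not measured.

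In each library HIF1A was also set against EPAS1 per kb, since both alpha subunits draw on ARNT. HIF1A made up 11.7, 10.4 and 9.18% of the summed EPAS1 and HIF1A level in WT, 15.4, 14.8 and 12.6% with PT2385, and 70.2, 71.4 and 67.7% in KO. The 3 groups did not overlap. The HIF1A to EPAS1 ratio was 1.43-fold higher with PT2385 than in WT and 19.9-fold higher in KO than in WT. Each of these had an exact two-sided permutation p = 0.1, the smallest that 3 libraries against 3 can give, and p = 0.15 after adjustment over 15 ratio tests. In KO EPAS1 lay 11.5-fold below WT and HIF1A 1.73-fold above. Most of the KO shift in share and ratio is therefore the loss of EPAS1 RNA itself. The sum of EPAS1 and HIF1A relative to ARNT was 4.75 ± 0.532 in WT, 4.79 ± 0.537 with PT2385 and 1.17 ± 0.0974 in KO. These are ratios of RNA, and the amounts of protein were not measured by these libraries.

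Among the beta subunits, ARNT was called in no comparison while ARNT2 was down-regulated in KO cells. ARNT was at 53.9, 51.3 and 54.6 CPM in WT, 49.5, 51.6 and 53.3 CPM with PT2385, and 55.2, 60.9 and 50.4 CPM in KO. The 3 groups overlapped, with log2 fold change intervals of -0.20 to 0.10 for PT2385 against WT and -0.10 to 0.25 for KO against WT. ARNT2, a partner best known from neural tissue, was at 12.5, 11.2 and 13.0 CPM in WT and 14.2, 10.9 and 14.6 CPM with PT2385. In KO its levels were 7.10, 5.16 and 5.83 CPM, all below the other 6 libraries. KO held 49.6% of the WT level (log2 fold change -1.01, SE 0.152, edgeR adjusted p = 0.000485). KO was also below PT2385 (log2 fold change -1.14, SE 0.169, edgeR adjusted p = 0.000853). Between PT2385 and WT the interval for ARNT2 ran from -0.18 to 0.41. Per kb, ARNT2 amounted to 0.191 ± 0.00836 of ARNT in WT, 0.215 ± 0.0336 with PT2385 and 0.0913 ± 0.0188 in KO.

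**Figure D3:**
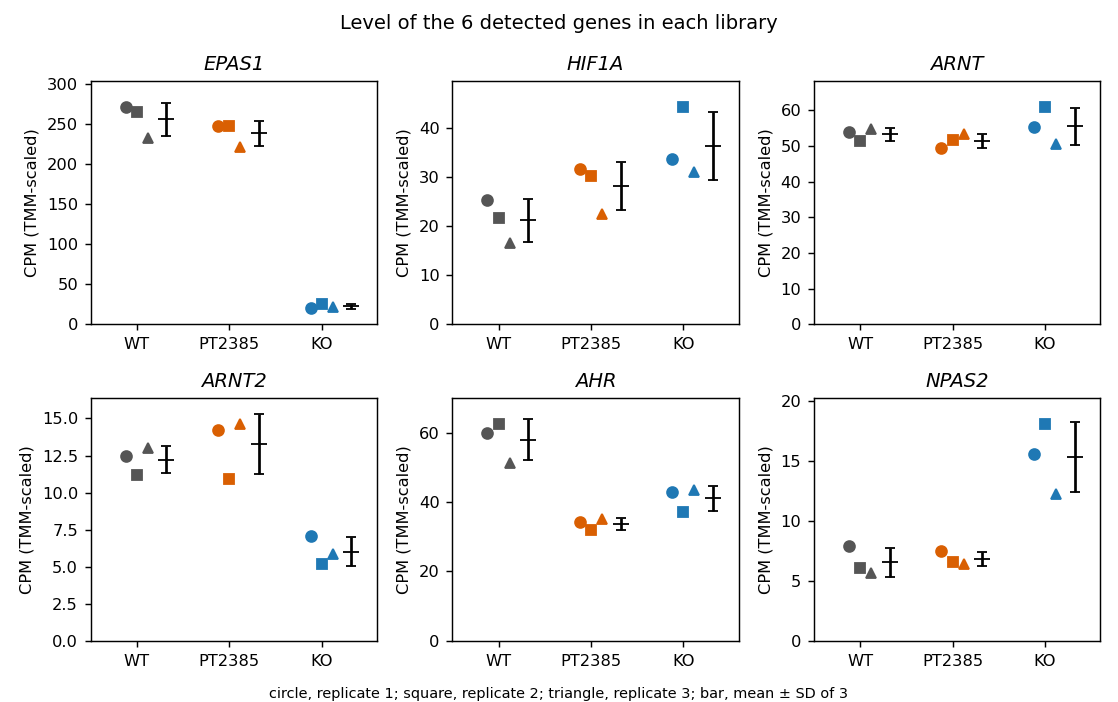
CPM of each of the 6 detected members in the 9 libraries, with symbols for replicates, bars for the mean ± SD of 3 and an axis from 0 in each panel. AHR lies lower in both altered groups than in WT, and in the KO libraries EPAS1 and ARNT2 are lower and NPAS2 higher than in the other 6.

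AHR was down-regulated both with PT2385 and in KO cells, and was the single member called upon PT2385 treatment. Its levels were 60.0, 62.5 and 51.3 CPM in WT, 34.3, 31.8 and 35.0 CPM with PT2385, and 42.9, 37.0 and 43.3 CPM in KO. No PT2385 or KO library reached the lowest WT library. PT2385-treated cells held 58.0% of the WT level (log2 fold change -0.79, SE 0.0877, edgeR adjusted p = 0.000114), and AHR ranked 157 by p among 15089 tested genes. KO cells held 71.4% (log2 fold change -0.49, SE 0.0947, edgeR adjusted p = 0.00265). The 2 comparisons share the WT libraries. All KO libraries lay above all PT2385 libraries. The log2 fold change of KO over PT2385 was 0.28 (interval 0.08 to 0.49, edgeR adjusted p = 0.0565), and KO exceeded PT2385 at each replicate number, by 0.32, 0.22 and 0.31. It was called without KO replicate 2 (adjusted p = 0.0261), with the replicate block (0.0245) and in 1 model of all 9 libraries (0.0447). AHR shares 2373 exon bases with ENSG00000283321 on the same strand, which had 0 counts, and 492 with the antisense ENSG00000237773, which had 64 counts against 5162 for AHR.

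The genes that AHR is known to induce were split in direction. Of 8 listed, 5 passed the filter on low counts. With PT2385 2 were higher and 2 lower, where 7.70% of all tested genes were called. The median log2 fold change was 0.30 against 0.001 over all tested genes. TIPARP, an ADP-ribosyltransferase that restrains AHR, fell from 110.1 to 75.2 CPM (log2 fold change -0.55, adjusted p = 0.00186). UGT1A6, a glucuronosyltransferase whose exons are partly shared with its gene cluster and whose count is thus uncertain, fell by 0.31 on the log2 scale (adjusted p = 0.0105). CYP1B1, a monooxygenase of steroids and aromatic hydrocarbons, rose by 0.32 (adjusted p = 0.0119), and NQO1, a quinone reductase also driven by NRF2, rose by 0.30 (adjusted p = 0.0126). For 3 of these genes the adjusted p passed 0.05 when 1 library was left out, with log2 fold changes that stayed at 0.28 to 0.39 for CYP1B1, 0.26 to 0.34 for NQO1 and -0.33 to -0.28 for UGT1A6. CYP1B1 lost its call without WT replicate 1 (adjusted p = 0.0705) or WT replicate 3 (0.0546) and in 1 model of all 9 libraries (log2 fold change 0.32, adjusted p = 0.123), and NQO1 without WT replicate 3 (0.0597) or PT2385 replicate 2 (0.0653). UGT1A6 lost it without WT replicate 1 (0.0581), WT replicate 2 (0.0530) or PT2385 replicate 2 (0.0544).

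In KO cells 2 of the 5 AHR targets were again higher and 2 lower than in WT, where 30.1% of all tested genes were called. The median log2 fold change was -0.04 against 0.004 over all tested genes. CYP1B1 was 0.58 higher on the log2 scale (adjusted p = 0.00386), and UGT1A6 was at 73.0% of WT (log2 fold change -0.45, adjusted p = 0.00165). AHRR, the repressor that competes with AHR for ARNT, was counted 22, 12 and 6 times in WT and 32, 42 and 33 times in KO (log2 fold change 1.21, adjusted p = 0.0282). TIPARP was at 79.1% of WT (adjusted p = 0.0128). The AHRR call was lost without WT replicate 2 (adjusted p = 0.101), WT replicate 3 (0.0924), KO replicate 1 (0.0610) or KO replicate 2 (0.0720), and the TIPARP call without WT replicate 3 (0.0566) or KO replicate 1 (0.0595). CYP1A1, the classical AHR target, had at most 9 counts in any library and was not tested. Against PT2385, KO cells had less NQO1 (log2 fold change -0.36, adjusted p = 0.00485), 1 of 5 called, where 18.8% of all tested genes were called.

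Among the AHR chaperones, PTGES3 (p23), HSP90AA1 and HSP90AB1 were tested, and none of these was called with PT2385. With the replicate block HSP90AB1 was 0.14 higher on the log2 scale (adjusted p = 0.00901). PTGES3 was at 89.9% of WT in KO (adjusted p = 0.0467), a call lost without any 1 of 5 of the 6 libraries, the exception being KO replicate 3, with adjusted p up to 0.144. It was lost as well under DESeq2 (0.0689), RLE scaling (0.05003) and no filter on low counts (0.0966). HSP90AB1 was lower in KO than with PT2385 (log2 fold change -0.21, adjusted p = 0.0354). That call was lost without KO replicate 1 or 2 or PT2385 replicate 2 or 3, with adjusted p up to 0.143, and under DESeq2 (0.0637).

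NPAS2 was the member with the largest rise in KO cells. Its levels were 7.89, 6.09 and 5.66 CPM in WT, 7.47, 6.55 and 6.41 CPM with PT2385, and 15.6, 18.1 and 12.3 CPM in KO. Every KO library was above every other library. KO lay 2.36-fold above WT (log2 fold change 1.24, SE 0.179, edgeR adjusted p = 0.000370) and above PT2385 by 1.17 on the log2 scale (SE 0.163, edgeR adjusted p = 0.000619). The difference between PT2385 and WT, 0.05, had an interval of -0.31 to 0.41 and turned to -0.04 without WT replicate 3 and to -0.03 without PT2385 replicate 1. The counts behind it were the lowest of the detected members, at 68 to 94 in WT. Antisense transcripts at NPAS2 had 3 counts (NPAS2-AS1) and 13 counts (ENSG00000223947) over all libraries, against 1149 for NPAS2.

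Of the 12 clock genes listed around NPAS2, 11 were tested. None was called with PT2385 (7.70% of all tested genes were), although PER1, a repressor of the clock loop, was higher in all 3 PT2385 libraries than in any WT library (log2 fold change 0.46, adjusted p = 0.0532). With the replicate block PER1 (adjusted p = 0.00908) and BMAL2 (log2 fold change -0.16, adjusted p = 0.0448) were called. PER1 was called as well with library-size scaling (0.0419), without the filter (0.0199) and in 1 model of all 9 libraries (0.0442). In KO cells 1 clock gene was higher and 1 lower than in WT (30.1% of all tested genes were called), with a median log2 fold change of 0.03. PER1 was 0.49 higher (adjusted p = 0.0131), a call lost without WT replicate 1 (0.0581) or WT replicate 2 (0.0618). BMAL2, a paralogue of the NPAS2 partner BMAL1, was at 186, 193 and 210.1 CPM in WT and at 131, 112 and 143 CPM in KO (log2 fold change -0.60, adjusted p = 0.000386). All KO values were below all WT values. BMAL2 was also lower in KO than with PT2385 (log2 fold change -0.46), the only call among the 11 in that comparison (18.8% of all tested genes were called). CLOCK, the paralogue of NPAS2, had a log2 fold change of 0.32 there (adjusted p = 0.0671). It was called with DESeq2 (0.0278), the replicate block (0.0167), no filter (0.0017) and 1 model of all 9 libraries (0.0305). NR1D1 (log2 fold change 0.43) and PER2 (-0.39) were called there with the replicate block (0.0322 and 0.0369). Both were also called with no filter (0.037 and 0.0398).

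SIM2 had a detected paralogue. SIM1, a factor known from hypothalamic development, was counted 147, 133 and 112 times in WT, 169, 193 and 145 times with PT2385, and 231, 402 and 302 times in KO. Its KO libraries were the highest, at 22.2 CPM on average against 10.9 in WT (log2 fold change 1.04, adjusted p = 0.000917), and lay 0.80 above PT2385 on the log2 scale. Of the 11 other bHLH-PAS genes listed, 8 were tested. None was called with PT2385 (7.70% of all tested genes were), or 1, BMAL2, with the replicate block (15.3%). In KO cells 4 were higher than in WT (SIM1, AHRR and the coactivators NCOA1 and NCOA3) and 1 was lower (BMAL2), with a median log2 fold change of 0.22. Of all tested genes 30.1% were called in that comparison, 14.7% higher and 15.4% lower. NCOA1 was 0.32 higher (adjusted p = 0.0101). NCOA3 was 0.30 higher with overlapping groups (adjusted p = 0.0486), and lost its call without any 1 of 5 of the 6 libraries, all but KO replicate 3, with adjusted p up to 0.165, and with library-size scaling (0.0569). Between KO and PT2385, SIM1 was the single higher and BMAL2 the single lower gene of the 8, where 18.8% of all tested genes were called.

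**Figure D4:**
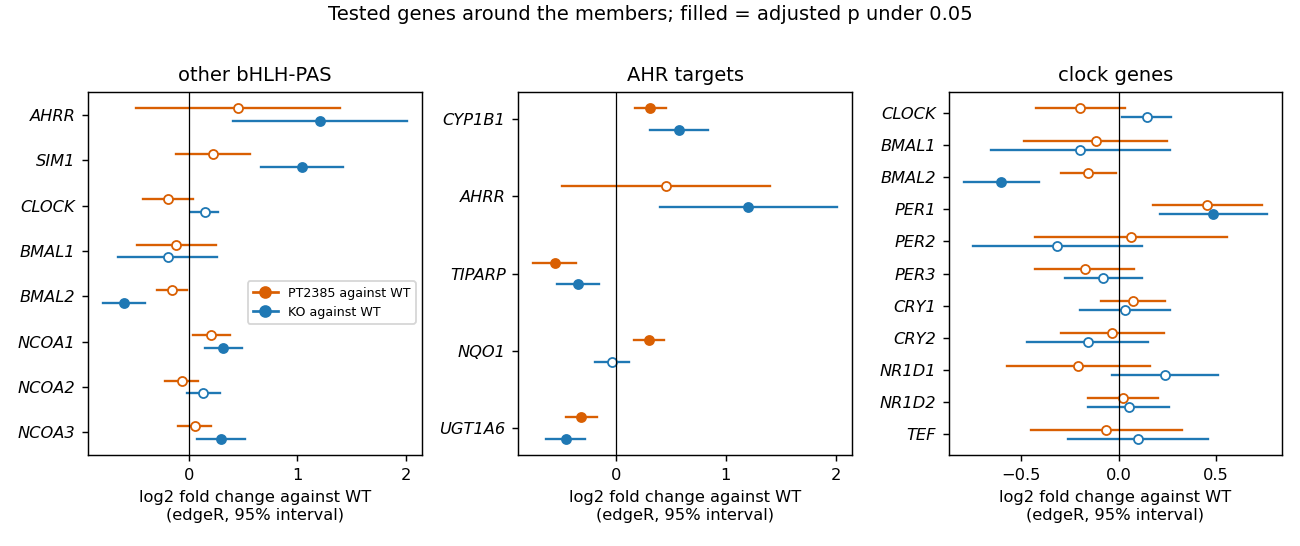
Log2 fold changes against WT of the tested genes among other bHLH-PAS proteins, AHR targets and clock genes, for PT2385 and for KO, as points with 95% intervals from edgeR; filled points have an adjusted p under 0.05. AHR targets lie on both sides of 0, and SIM1 (1.04) and BMAL2 (-0.60) are filled for KO and open for PT2385.

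The genes that control HIF alpha subunits were called about as often as tested genes in general, 1 of 13 with PT2385 (7.70% of all tested genes) and 3 of 13 in KO against WT (30.1%). These are hydroxylases, VHL ligase subunits and coactivators, all tested. The 1 gene lower with PT2385 was EGLN3, the HIF-inducible prolyl hydroxylase, which fell from 130.4 to 14.7 CPM (log2 fold change -3.14). With the replicate block the coactivator-binding CITED2 (log2 fold change -0.19, adjusted p = 0.0326) and RACK1 (0.12, adjusted p = 0.0474) were called too. In KO cells EGLN3 was at 2.47, 1.88 and 2.88 CPM, or 1.87% of WT, and lower than with PT2385 (log2 fold change -2.61, adjusted p = 5.74e-06). EGLN1, the principal oxygen sensor of the pathway, differed from EGLN3. It was at 72.9, 72.2 and 73.1 CPM in WT and 75.1, 75.6 and 78.1 CPM with PT2385. In KO it was at 165, 164 and 171 CPM, 2.31-fold above WT (log2 fold change 1.21, adjusted p = 7.91e-08) and 1.13 above PT2385 on the log2 scale (adjusted p = 1.70e-06). All KO values of EGLN1 lay above all PT2385 values, while its interval for PT2385 against WT ran from -0.07 to 0.20. ELOC, a VHL ligase subunit, was 0.27 higher in KO than in WT (adjusted p = 0.0390). It lost the call without WT replicate 1 (0.154), WT replicate 2 (0.106), KO replicate 1 (0.0553) or KO replicate 3 (0.0844). CITED2, which competes with HIF alpha for p300, was 0.35 higher in KO than with PT2385 (adjusted p = 0.0355), and lost the call without KO replicate 2 (0.121), KO replicate 3 (0.0691), PT2385 replicate 1 (0.104) or PT2385 replicate 2 (0.0743). The median over the 13 genes was 0.04 for PT2385 against WT and 0.03 for KO against WT.

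Known HIF target genes were read beside the members, and no dimer was measured. They were listed with earlier results of these data known, so their counts are descriptive. Of 20 listed, 18 were tested. With PT2385 15 were lower and 0 higher, with a median log2 fold change of -0.83, where 7.70% of all tested genes were called. In KO cells 14 were lower and 1 was higher than in WT, with a median of -0.99, where 30.1% of all tested genes were called. NDRG1, a stress-response gene, fell from 643 CPM to 55.5 with PT2385 and 47.7 in KO. The glucose transporter SLC2A1 fell from 909 to 184 and 259 CPM, and VEGFA, the angiogenic growth factor, from 325 to 75.2 and 74.3 CPM. CA12, a carbonic anhydrase, fell from 316 to 115 and 30.3 CPM. ENO1, a glycolytic enzyme, was the 1 higher gene, by 0.20 on the log2 scale (adjusted p = 0.0173), and lost its call without WT replicate 1 (0.0816) or WT replicate 2 (0.0730). Between KO and PT2385 4 of the 18 genes were called, where 18.8% of all tested genes were called. SLC2A1 was 0.49 higher in KO (adjusted p = 0.00161) and LDHA, lactate dehydrogenase A, 0.24 higher (adjusted p = 0.0285). CA12 was lower (log2 fold change -1.93, adjusted p = 1.70e-06), as was P4HA1, a collagen prolyl hydroxylase (log2 fold change -0.35, adjusted p = 0.0475). The LDHA call was lost without KO replicate 1 or 2 or PT2385 replicate 1 or 2, with adjusted p up to 0.158, and the P4HA1 call without any 1 of 5 libraries, all but PT2385 replicate 3, with adjusted p up to 0.149, and with RLE scaling (0.0507). Without the filter 10 of the 18 were called, and with the replicate block 9. The block called more genes in general, 3783 in place of 2897.

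The detected members also differed among themselves in how they varied over the 9 libraries, given here as Pearson correlations of log2 CPM that rest on 3 groups of libraries rather than on 9 independent points. EPAS1 ran with ARNT2 (r = 0.931) and opposite to NPAS2 (r = -0.932), and HIF1A ran with NPAS2 (r = 0.825). AHR followed neither EPAS1 (r = 0.17) nor ARNT (r = -0.003). Among 15655 genes, those with the pattern most like each member were DSP (0.998) and EVC2 (0.997) for EPAS1, GCNT3 (0.977) and GDF11 (0.975) for HIF1A, and C4orf48 (0.908) and FAM210B (0.901) for ARNT. For ARNT2 they were EXOSC6 (0.992) and TYRO3P (0.990), for AHR TANC2 (0.970) and ENTPD4 (0.957), and for NPAS2 TP53INP1 (0.993) and SDC3 (0.988). DSP averaged 15.9 counts per library, so its place rests on few reads.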

How the data were processed

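Per the study's methods, the authors checked reads with FastQC, trimmed them with cutadapt, aligned them to GRCh38 with STAR and deposited raw read counts per gene from featureCounts. Tool versions, annotation release and strandedness of counting are not given in the sources used here. All 9 columns were mapped to samples through their labels, and 0 were left unmapped. Symbols and exon lengths came from GENCODE v44, which matched 58207 of 58735 identifiers. The members and lists were chosen with earlier results of these data known.

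Each pair of groups was fitted across all genes with edgeR 4.0.16 in R 4.3.3 (TMM, filterByExpr with a minimum of 10 counts, quasi-likelihood F test, Benjamini-Hochberg adjustment over all tested genes), and a gene was called at an adjusted p under 0.05. The steps were tested on simulated data. Ratios were tested by exact two-sided permutation in SciPy 1.17.1. Intervals cover 95%.

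Pairing by replicate number was checked by correlating deviations from group means. Over 10140 genes with a mean of at least 100 counts, same-numbered libraries correlated at 0.137 to 0.453 for PT2385 and WT, 0.056 to 0.481 for KO and WT, and 0.0915 to 0.415 for KO and PT2385. Differently numbered libraries reached 0.0919, 0.293 and 0.185, so in both KO comparisons some correlated more than a same-numbered pair. Over all 15655 genes the lowest values of same-numbered pairs were 0.0324, -0.0142 and 0.0261. Printed results come from fits without a block. As every PT2385 and WT pair passed 0.1 on the well-counted genes, the blocked value stands beside results of that comparison whose call it changed.

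Named genes were all members, up to 3 called genes per list and direction with the smallest adjusted p, and for each member the 2 genes with the highest correlation. Alternatives were DESeq2 1.42.0, RLE or library-size scaling, no filter, the replicate block, all 9 libraries in 1 model, longest-transcript length and leaving out each library. Protein, migration and drug-screen data are not analysed here. The result of 1 listed gene is not reported here.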

Additional observations from a re-analysis of the deposited data

How the results depend on the processing

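Genes called with PT2385 against WT numbered 1162, rose to 2305 with the replicate block, which held all 1162, and ran from 574 to 1451 with 1 library left out. DESeq2 called 1072 genes, of which 1026 were shared. Members called in that comparison were 1, and 2 without the low-count filter, with the replicate block or without PT2385 replicate 3 (range 1 to 2), the added member being HIF1A. For KO against PT2385, 2897 genes became 1836 to 3190 with 1 library left out, and the 3 called members became 5 with the replicate block and 3 or 4 with 1 library left out. HIF1A (adjusted p = 0.0231) and AHR (0.0245) were the additions under the block. In 1 model of all 9 libraries AHR was also called there (0.0447), and without the filter HIF1A was (0.0102). The paired numbers were at most a weak hint from the counts for the KO comparisons and not a design. For KO against WT the block called 5501 genes in place of 4566. The EPAS1 to ARNT ratio of PT2385 against WT, -0.05 on the log2 scale, ran from -0.138 to 0.0287 with 1 library left out, turning without PT2385 replicate 3 (0.0287) and without WT replicate 2 (0.0008). NPAS2 in PT2385 against WT ran from -0.04 to 0.20, turning without WT replicate 3 (-0.0413) and PT2385 replicate 1 (-0.03). The cause of these shifts was not tested. Of 216 alternative values for members, 206 kept direction and call, 8 gained a call and 2 turned. Of 432 for 36 results of named listed genes, each called with all libraries and so unable to gain a call, 377 kept both and 55 lost the call. Listed genes gained calls with the replicate block and also with no filter and other settings. For PT2385 against WT the block called 2 clock genes in place of 0 and 3 HIF regulators in place of 1. It also called 1 other bHLH-PAS gene in place of 0. No member lost a call. With 3 libraries a group, permutation of ratios could not reach the threshold, and HIF3A and SIM2 could not be measured at this depth.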
